A study of Mus musculus with 6 samples.

Results

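The genes described here are 44 genes of amino acid supply and tRNA charging, many of which are commonly placed downstream of the transcription factor ATF4. They were taken by name from the count tables of 3T3-L1 adipocytes, which list 24421 gene symbols, and all 44 names were found. By role they comprised 18 cytosolic aminoacyl-tRNA synthetases, 12 enzymes of amino acid synthesis and interconversion, 8 amino acid transporters and 6 stress response effectors. When the translation initiation factor eIF2 is phosphorylated on its alpha subunit, by PERK during stress of the endoplasmic reticulum (ER) or by GCN2 when uncharged tRNA builds up, general translation slows while ATF4 mRNA is translated more. ATF4, often with a C/EBP partner, then binds C/EBP-ATF response elements near genes that import amino acids, make them and attach them to tRNA. Adipocytes are secretory cells that also take up and break down amino acids in quantity.

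3T3-L1 is a clonal mouse line that is turned into adipocytes in culture, and the labels give its strain as C57BL/6. The study names that strain for its mice and none for this line, so that the label is uncertain. Both groups had been differentiated with insulin (870 nM), a thiazolidinedione (5 μM), dexamethasone (1 μM) and IBMX (500 μM) and were infected on day 7 with adenovirus at 100 pfu/cell. The virus carried *LacZ* in the control group (AdLacZ, n = 3) or a codon-optimized murine *Lmo3*, which encodes a LIM domain adaptor protein, in the other (Ad*Lmo3*, n = 3). RNA was isolated 72 h later by the methods of the study, whose results text gives a shorter time for the check of *Lmo3* expression. The sample titles number 3 replicates per virus and do not say whether these were separate infections. The comparison asked which transcripts differ once LMO3 is present in mature adipocytes. No uninfected library was included, so that every difference is relative to AdLacZ.

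Each library held 28035639 to 38332335 counts on genes, and 3 counts, taken as the smallest detectable number, corresponded to 0.0768 to 0.111 CPM, the count relative to the library size after TMM scaling (trimmed mean of M values). *Lmo3* itself had a count of 0 in all 6 libraries, so that the labels could not be checked through the delivered gene. All 10 adipocyte markers examined were expressed. Their summed level was 11610 to 12060 CPM in AdLacZ and 17590 to 21800 CPM in Ad*Lmo3*, and 9 of the 10 were higher with Ad*Lmo3* at an adjusted p under 0.05. The summed level of 10 preadipocyte and fibroblast genes, among them collagens and fibronectin, was 26040 to 32100 CPM in AdLacZ and 24470 to 36810 CPM in Ad*Lmo3*, with 0 of 10 past the threshold (0 also at an unadjusted p under 0.05). The 6 macrophage genes together were at 4.61 to 5.86 CPM in AdLacZ and 3.18 to 5.21 CPM in the other group. Only 3 of the 6 had enough counts to be tested, and *Adgre1*, *Itgam* and *Ptprc* had at most 3 counts in any library. The part of adipocyte maturity in the results below was not tested.

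Of the 44 genes, 42 had enough counts to be tested, and 10 of these (23.8%) were lower in Ad*Lmo3* than in AdLacZ at an adjusted p under 0.05, by edgeR's quasi-likelihood test with Benjamini-Hochberg adjustment over all 12766 genes tested. None was higher. Among all genes tested 4.28 percent were called, 1.57 percent lower and 2.71 percent higher. The 10 genes were *Nupr1*, *Wars*, *Got1*, *Slc7a5*, *Gars*, *Chac1*, *Slc3a2*, *Aldh18a1*, *Sars* and *Eprs*, and they came from all 4 roles. In RNA from whole cultures, a smaller number of cells with high levels and less RNA per cell cannot be told apart. The median difference over the 42 genes was -0.23 on the log2 scale, against 0.00 over all genes tested, and 34 of the 42 were lower in sign, compared with 49.6 percent of all genes. The 3 Ad*Lmo3* values lay below the 3 AdLacZ values for 23 of the 42, against 13.2 percent of all genes, and lay above them for none, against 13.3 percent. At an unadjusted p under 0.05 there were 24 lower and 0 higher genes, against 9.54 and 11.1 percent of all genes.

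**Figure D1:**
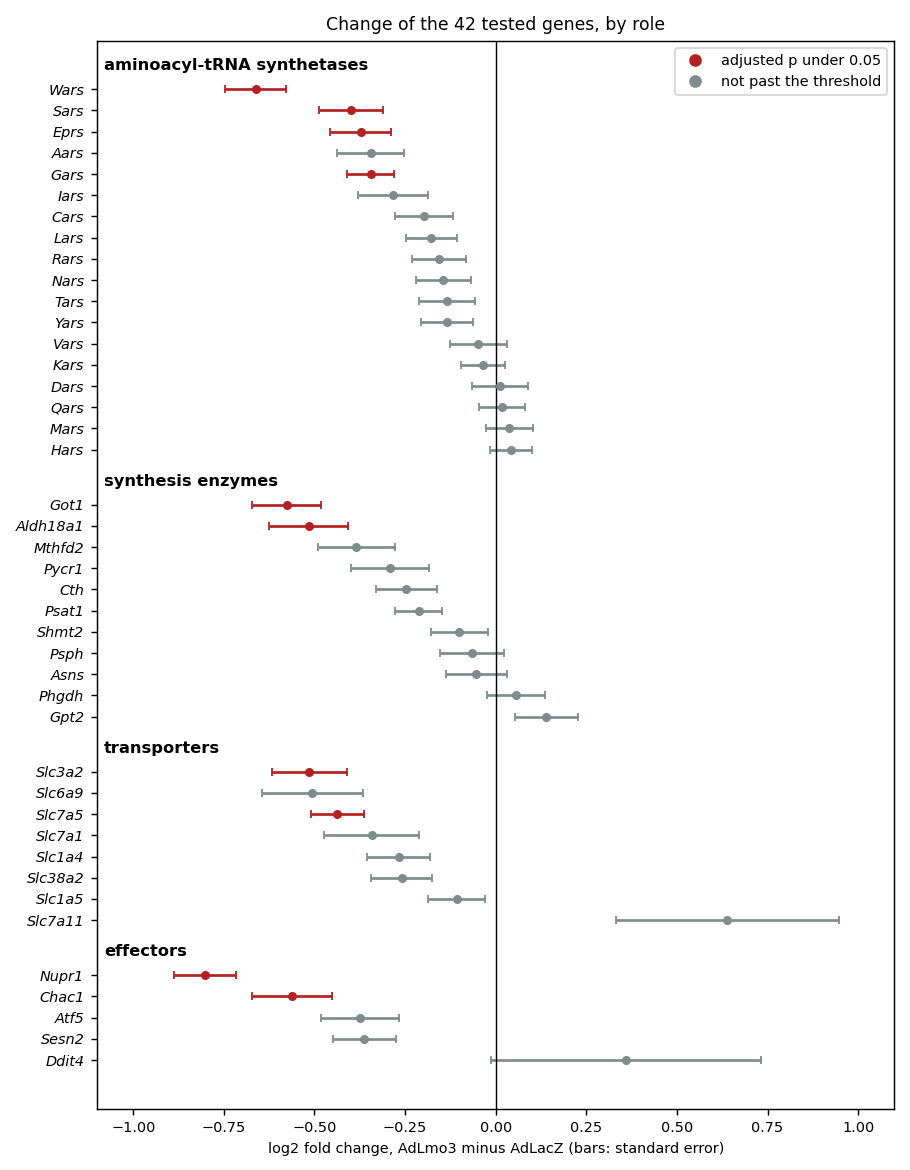
Log2 fold change of Ad*Lmo3* against AdLacZ for the 42 tested genes, sorted within 4 roles. Points are edgeR estimates, bars are standard errors, and red marks an adjusted p under 0.05. All 10 red points lie left of 0, with *Nupr1* lowest at -0.80, and the rightmost point, *Slc7a11* at 0.64, has the second widest bar.

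The 44 genes together took 0.714, 0.760 and 0.727% of the gene counts in AdLacZ replicates 1, 2 and 3 and 0.620, 0.571 and 0.556% in Ad*Lmo3* replicates 1, 2 and 3. These are shares of library totals, without TMM scaling. Every Ad*Lmo3* library was thus below every AdLacZ library. This held after TMM scaling too, with summed levels of 6877 to 7454 CPM in AdLacZ and 5774 to 6296 CPM in Ad*Lmo3*. Within AdLacZ, replicate 2 ran high, with 34 of 42 genes above their group mean, and within Ad*Lmo3* replicate 1 ran high, with 32 of 42. These shifts were small beside the group difference, at medians of 0.06 and 0.07 on the log2 scale. The spread between replicates was like that of other genes, with a median SD of log2 CPM of 0.10 in AdLacZ and 0.105 in Ad*Lmo3*, compared with 0.114 and 0.113 over all genes.

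The number of calls depended on single libraries. Without AdLacZ replicate 1 or without Ad*Lmo3* replicate 3, 5 of the genes were called, and without AdLacZ replicate 2, AdLacZ replicate 3 or Ad*Lmo3* replicate 2 only *Nupr1* and *Wars* were. Without Ad*Lmo3* replicate 1 there were again 10, of which 7 were among the first 10. Over the same 6 fits all genes called ranged from 77 to 501, and the median of the 42 genes from -0.26 to -0.20. With DESeq2 the calls numbered 16 lower and 0 higher, which were the same 10 genes plus *Aars*, *Psat1*, *Mthfd2*, *Slc6a9*, *Sesn2* and *Atf5*, where DESeq2 called 3.35 percent of all genes lower and 5.19 percent higher. *Nupr1* and *Wars* kept an adjusted p under 0.05 in all 13 alternatives tried.

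**Figure D2:**
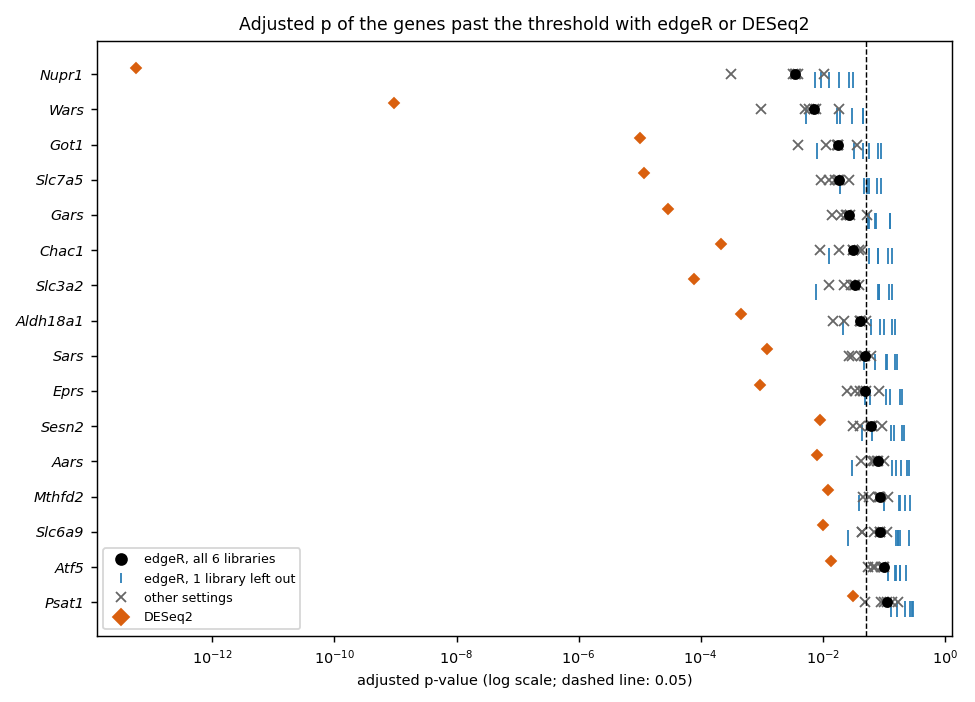
Adjusted p (log axis) of the 16 genes past the threshold with edgeR or DESeq2. Black circles are edgeR with all 6 libraries, blue ticks leave out 1 library, crosses are other settings and orange diamonds are DESeq2. The symbols of *Nupr1* and *Wars* all lie left of the dashed line at 0.05, whereas those of the other 14 genes fall on both sides of it.

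To see where an ATF4-type element lies in these genes, promoter windows from RefSeq (GRCm38.p6, 250 bases before to 50 after each start) were searched on both strands for TGATGNAA, the core of the C/EBP-ATF response element. A window was given for 34 of the 44 genes, and 12 of them (35.3%) held a match, compared with 4.51% of the 27025 genes in the table and 2.71% of the 9680 tested genes with a window. Since many of the genes are known from such elements, this share describes the choice of genes. The matches were in *Aars*, *Gars*, *Iars*, *Tars*, *Yars*, *Asns*, *Pycr1*, *Got1*, *Slc7a11*, *Slc1a4*, *Chac1* and *Nupr1*. The stretches before the start are printed for the 4 called genes among them and for *Slc7a11*, the gene with the highest positive fold change. All are written 5′ to 3′ on the gene's strand, and capitals mark the element or its reverse complement.
*Gars* (chr6:55037945-55038000, plus strand): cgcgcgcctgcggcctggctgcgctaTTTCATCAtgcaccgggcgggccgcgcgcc
*Got1* (chr19:43524674-43524733, minus strand): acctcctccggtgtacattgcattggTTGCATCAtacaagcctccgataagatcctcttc
*Chac1* (chr2:119351023-119351082, plus strand): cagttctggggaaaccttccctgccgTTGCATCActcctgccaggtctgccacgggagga
*Nupr1* (chr7:126625562-126625591, minus strand): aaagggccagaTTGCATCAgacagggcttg
*Slc7a11* (chr3:50443627-50443705, minus strand): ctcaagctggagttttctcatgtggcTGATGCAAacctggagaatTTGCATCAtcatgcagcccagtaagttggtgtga
The first base of the match lay 30 bases before the RefSeq start in *Gars*, 102 in *Got1*, 193 in *Chac1* and 110 in *Nupr1*. In *Nupr1* this start, and the stretch printed, lie inside the longer span given for the gene below. *Slc7a11* held 2 matches facing each other, 66 and 47 bases before the start. *Got1*, *Chac1* and *Nupr1* and the second match of *Slc7a11* share the same 8 letters, while *Gars* differs from them within the element.

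Fold changes overlapped broadly between genes with and without the element. Among the tested genes with a window, the 12 with the element had a median log2 fold change of -0.29, with 4 called and 11 lower in sign, and the 20 without it had a median of -0.24, with 4 called and 14 lower. Both ranges were wide, from -0.80 to 0.64 with the element and from -0.52 to 0.36 without it. No window of the 34 held the ER stress response element (CCAAT and CCACG at a fixed spacing), which is rare everywhere at 0.137% of all genes. TGACNNNGC, the antioxidant response element core bound by NRF2, was present in 11 of the 34 windows (32.4%). It was present in 14.0% of all genes and in 17.2% of the 9680 tested genes with a window. Of the 8 called genes that had a window none held it, against 10 of the 24 tested and not called (41.7%). With 8 genes a count of 0 cannot be told from the share of tested genes, and the difference was not tested. No 2 matches of different motifs overlapped in these windows. *Wars* and *Slc7a5* are among the 10 genes for which no window was used here.

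**Figure D3:**
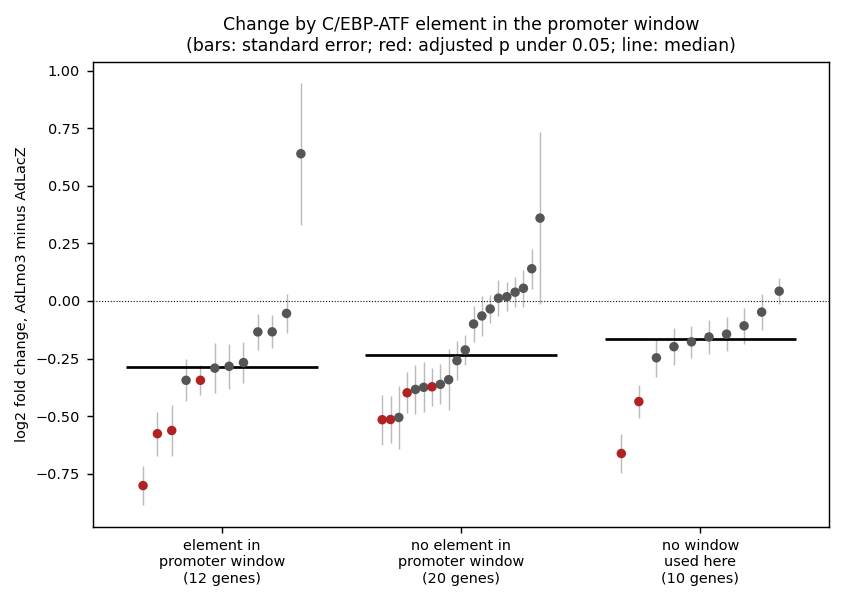
Log2 fold change (Ad*Lmo3* against AdLacZ) of the 42 tested genes, split by a TGATGNAA match in the promoter window. Bars on points are standard errors, horizontal lines are medians, and red marks an adjusted p under 0.05. The medians of -0.29 and -0.24 lie close together, and 4 red points stand in each of the first 2 columns.

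Aminoacyl-tRNA synthetases join each amino acid to its tRNA, the step before translation. Of the 18 cytosolic enzymes, 4 were lower in Ad*Lmo3* (*Wars*, *Sars*, *Eprs* and *Gars*), 0 were higher and 14 did not pass the test. The median log2 fold change was -0.15, and the groups did not overlap for 8 of the 18, all lower. Among all genes tested 1.57 percent were called lower and 13.2 percent were lower with separate groups. *Wars* (chr12:108860030-108894174, GRCm38, minus strand), the enzyme for tryptophan, was at 118, 132 and 120 CPM in AdLacZ compared with 85.8, 73.8 and 73.9 CPM in Ad*Lmo3*. Each Ad*Lmo3* value was well below the lowest AdLacZ value. Its level was 36.8% lower than in AdLacZ, a log2 fold change of -0.66 (SE 0.083, adjusted p = 0.00715).

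*Sars*, the enzyme for serine (chr3:108424865-108445209, minus strand), was at 269, 312 and 280 CPM in AdLacZ against 236, 219 and 199 CPM in Ad*Lmo3*. The groups were separate but closer together, and the log2 fold change was -0.40 (SE 0.089, adjusted p = 0.0478). *Eprs* (chr1:185363044-185428360, plus strand), a single protein that charges glutamate and proline tRNAs, was at 548, 601 and 623 CPM against 493, 445 and 430 CPM. Its groups did not overlap either, and its log2 fold change was -0.37 (SE 0.084, adjusted p = 0.0481). *Gars*, the enzyme for glycine (chr6:55038007-55079500, plus strand), was at 498, 526 and 519 CPM in AdLacZ compared with 415, 392 and 408 CPM in Ad*Lmo3*. Its replicates were among the tightest of all genes tested (4.05th percentile of the pooled SD), so that a log2 fold change of -0.34 (SE 0.065) reached an adjusted p of 0.0266. Leaving out single libraries raised the adjusted p to as much as 0.161 for *Sars*, 0.193 for *Eprs* and 0.127 for *Gars*, and without any 1 library other than Ad*Lmo3* replicate 1 the synthetases called were reduced to *Wars* alone.

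The other 14 synthetases ran from *Aars* at -0.34 (alanine, adjusted p = 0.0806) to *Hars* at 0.04 (histidine, adjusted p = 0.738). Near 0 with *Hars* were *Mars* (methionine, 0.04), *Qars* (glutamine, 0.02) and *Dars* (aspartate, 0.01), and these 4 turned to between -0.06 and -0.03 when only library totals were used for scaling. For *Hars* the 95% interval of the log2 fold change, -0.09 to 0.18, leaves out a difference of the size seen in *Wars* or *Gars*. *Hars* was at 73.7, 68.9 and 70.7 CPM in AdLacZ against 75.3, 71.9 and 72.4 CPM in Ad*Lmo3*, and its groups overlapped. A split by the multi-synthetase complex, the cytosolic particle in which several of these enzymes are held together, was made after the values were seen. Of the 8 enzymes in the complex 1 was called (*Eprs*) and the median was -0.10, and of the 10 outside it 3 were called and the median was -0.17. The remaining parts of that complex and the phenylalanine enzyme (*Farsa*, *Farsb*, *Aimp1*, *Aimp2* and *Eef1e1*) had 0 of 5 called with edgeR. Of these, 2 were lower at an unadjusted p under 0.05, and the median was -0.08. Of all genes tested, 1.57 percent were called lower and 9.54 percent were lower at an unadjusted p under 0.05.

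**Figure D4:**
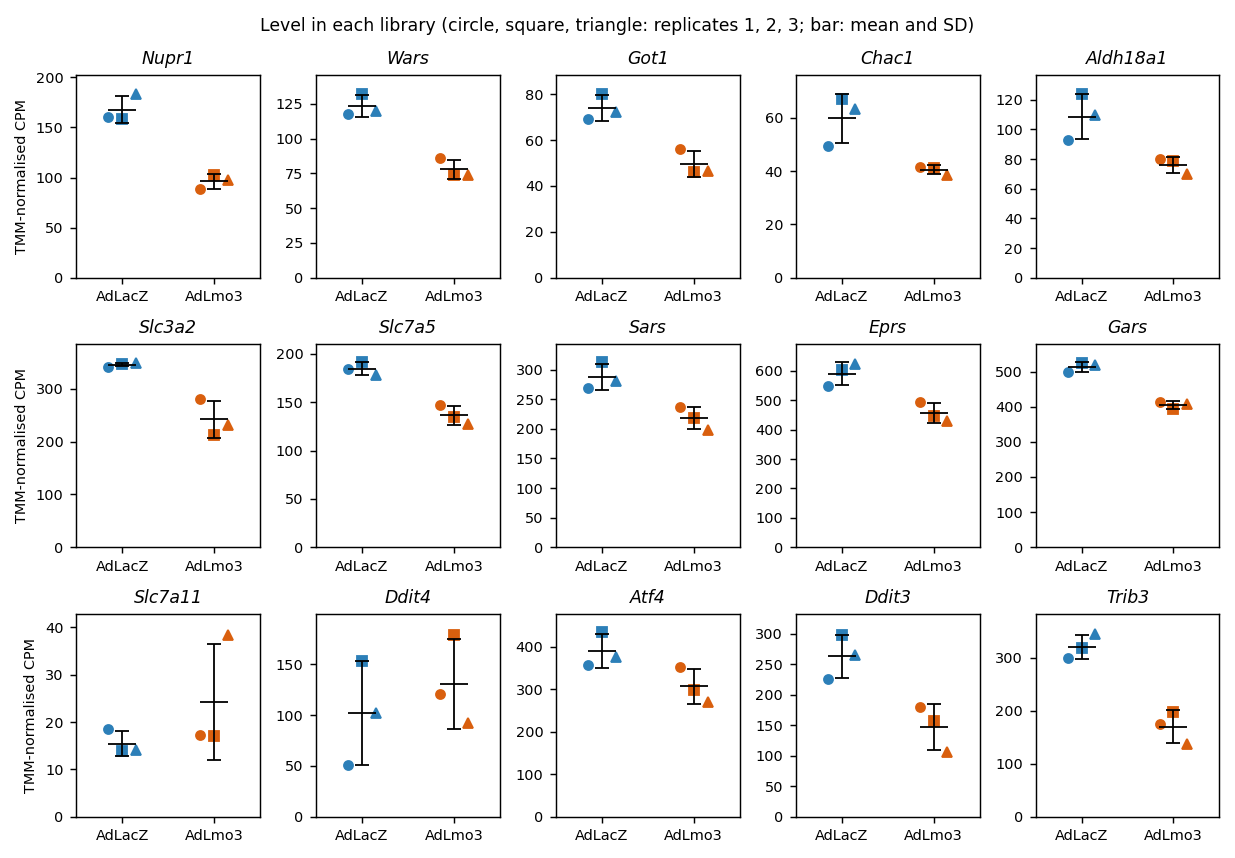
TMM-normalized CPM of the 10 called genes, of *Slc7a11* and *Ddit4*, and of *Atf4*, *Ddit3* and *Trib3* in each library (circle, square and triangle for replicates 1, 2 and 3, bars for mean and SD, n = 3, axes from 0). The groups are separate in every panel except *Slc7a11* and *Ddit4*, where 1 high Ad*Lmo3* value at 38.4 CPM and the spread of AdLacZ from 50.8 to 153 CPM stand out.

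Per length of the transcript, the levels of the 42 genes spanned from 239 CPM per kb for *Atf5* to 1.68 CPM per kb for *Slc7a11* in AdLacZ. The synthetases lay between 216 CPM per kb (*Gars*) and 20.8 CPM per kb (*Cars*, the enzyme for cysteine), with *Eprs* second at 120 CPM per kb. In Ad*Lmo3* the same genes were first and last, at 185 and 2.63 CPM per kb. *Wars* moved from rank 13 to rank 19 of 42 and *Nupr1* from rank 3 to rank 5.

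Synthesis enzymes make the non-essential amino acids and feed the folate-bound one-carbon units. Of the 12 enzymes 11 were tested, and 2 of these were lower in Ad*Lmo3*, against 1.57 percent of all genes tested. None was higher and 9 did not pass the test, with a median log2 fold change of -0.21. *Got1* (chr19:43499752-43524605, minus strand), the cytosolic aspartate aminotransferase, was at 69.0, 80.2 and 72.4 CPM in AdLacZ compared with 56.1, 46.1 and 46.4 CPM in Ad*Lmo3*. The groups were separate, with a log2 fold change of -0.58 (SE 0.095, adjusted p = 0.0173, at most 0.0872 when Ad*Lmo3* replicate 2 was left out). The mitochondrial isoform *Got2*, named after its value was seen, was at 80.9 ± 3.32 CPM in AdLacZ against 76.2 ± 1.47 CPM in Ad*Lmo3* (SD, n = 3), a log2 fold change of -0.09 (adjusted p = 0.473). The difference between the isoforms was not tested.

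*Aldh18a1* (chr19:40550257-40588463, minus strand), which makes the precursor of proline and ornithine from glutamate, was at 92.7, 124 and 110 CPM in AdLacZ compared with 79.9, 78.5 and 69.6 CPM in Ad*Lmo3*. AdLacZ replicate 2 was the highest value and replicate 1 came nearest to the Ad*Lmo3* group. The log2 fold change was -0.52 (SE 0.11, adjusted p = 0.0405), and the adjusted p ran up to 0.150 without AdLacZ replicate 3. *Pycr1*, the next enzyme on the way to proline, stood at -0.29 (adjusted p = 0.173) with separate groups.

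*Asns*, the asparagine synthetase and one of the best known ATF4 targets, was at 218, 206 and 194 CPM in AdLacZ against 206, 179 and 210 CPM in Ad*Lmo3*. The groups overlapped, and the 95% interval of the log2 fold change ran from -0.25 to 0.14. In the serine pathway, *Phgdh* (0.06, turning to -0.02 with library totals), *Psat1* (-0.21) and *Psph* (-0.07) did not pass the test. *Psat1* was at 395, 391 and 392 CPM in AdLacZ compared with 354, 333 and 329 CPM in Ad*Lmo3*, which do not overlap. The one-carbon enzymes *Mthfd2* (-0.38, adjusted p = 0.0862) and *Shmt2* (-0.10, adjusted p = 0.542) did not pass it either. *Gpt2*, the mitochondrial alanine aminotransferase, had the highest value of the enzymes at 0.14 (SE 0.087, adjusted p = 0.418). *Cbs*, which makes cystathionine, had 4, 1 and 2 counts in AdLacZ and 0, 1 and 2 in Ad*Lmo3* and was not tested, whereas *Cth*, the next enzyme of that route, was at 26.9 ± 1.74 and 22.7 ± 1.53 CPM (SD, n = 3).

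Amino acid transporters bring in the substrates. Of the 8 tested, 2 were lower in Ad*Lmo3*, against 1.57 percent of all genes tested, 0 were higher and 6 did not pass the test. The median log2 fold change was -0.30, and 5 had separate groups, all lower, against 13.2 percent of all genes. The 2 called genes encode the partners of a single carrier. *Slc3a2* (chr19:8706882-8723369, minus strand), the CD98 heavy chain, was at 342, 347 and 349 CPM in AdLacZ against 282, 213 and 232 CPM in Ad*Lmo3*. AdLacZ was nearly constant while Ad*Lmo3* varied, and every Ad*Lmo3* value was below the AdLacZ values (log2 fold change -0.51, SE 0.10, adjusted p = 0.0331). *Slc7a5* (chr8:121881150-121907694, minus strand), the LAT1 light chain that exchanges large neutral amino acids such as leucine, was at 184, 191 and 179 CPM against 147, 135 and 128 CPM. The groups were separate, and the log2 fold change was -0.44 (SE 0.073, adjusted p = 0.0179). Leaving out any 1 AdLacZ library or Ad*Lmo3* replicate 2 removed both calls, with adjusted p up to 0.137 for *Slc3a2* and 0.0894 for *Slc7a5*.

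*Slc7a11*, the xCT light chain that pairs with *Slc3a2* to import cystine, was the only transporter with a positive fold change. It was at 18.5, 13.8 and 14.1 CPM in AdLacZ compared with 17.2, 17.1 and 38.4 CPM in Ad*Lmo3*. The groups overlapped, and a single library, Ad*Lmo3* replicate 3, was high. The log2 fold change was 0.64 (SE 0.31, adjusted p = 0.291) with that library and 0.15 without it, and its pooled SD was at the 94.5th percentile of all genes. The other 5 ranged from *Slc6a9*, a glycine carrier (-0.51, adjusted p = 0.0863), over *Slc7a1* (cationic amino acids, -0.34), *Slc1a4* (-0.27) and *Slc38a2* (-0.26) to *Slc1a5* (neutral amino acids, -0.11), and none passed the test. Of the stretches of 75 bases in the *Slc6a9* exons 24.3% also occur in other annotated genes, mainly in *Ccdc24* on the opposite strand, so that its count is uncertain; the same holds for *Phgdh* (35.8%) and *Aars* (13.2%).

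Stress response effectors act downstream of ATF4 on glutathione, mTORC1 signaling and transcription. Of the 6 genes 5 were tested, and 2 were lower in Ad*Lmo3*, against 1.57 percent of all genes tested. None was higher and 3 did not pass the test, with a median of -0.38 on the log2 scale. *Nupr1* (chr7:126623249-126630861, minus strand), a small stress-induced chromatin protein, was at 161, 159 and 183 CPM in AdLacZ against 88.1, 103 and 97.5 CPM in Ad*Lmo3*. The groups lay far apart, and the level was 42.6% lower than in AdLacZ. The log2 fold change was -0.80 (SE 0.086, adjusted p = 0.00352, at most 0.0306 over the 13 alternatives). This was the lowest fold change among the 42 genes. *Chac1* (chr2:119351229-119354381, plus strand), which degrades glutathione, was at 49.4, 66.9 and 63.2 CPM in AdLacZ compared with 41.6, 41.3 and 38.6 CPM in Ad*Lmo3*. AdLacZ replicate 1 lay nearest to the other group, and the log2 fold change was -0.56 (SE 0.11, adjusted p = 0.0308, up to 0.137 without AdLacZ replicate 3).

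*Sesn2* and *Ddit4* both encode inhibitors of mTORC1. *Sesn2* was at 85.3 ± 6.03 CPM in AdLacZ against 66.4 ± 6.34 CPM in Ad*Lmo3* (SD, n = 3), with separate groups and an adjusted p of 0.0605. *Ddit4* was at 50.8, 153 and 102 CPM in AdLacZ compared with 121, 179 and 92.6 CPM in Ad*Lmo3*. These values overlapped broadly, with a log2 fold change of 0.36 (SE 0.37, adjusted p = 0.647), and the pooled SD was at the 97.6th percentile of all genes. Its fold change was 0.04 without AdLacZ replicate 1 and 0.78 without AdLacZ replicate 2. *Atf5*, a transcription factor related to ATF4, was at 433, 452 and 418 CPM against 359, 367 and 280 CPM, which do not overlap (log2 fold change -0.38, adjusted p = 0.0981). *Stc2*, a secreted glycoprotein, had 1, 2 and 2 counts in AdLacZ and 0 in each Ad*Lmo3* library, which is at or under the detection floor, and was not tested.

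A list of 14 genes of the ATF4 axis held eIF2 kinases, phosphatase subunits and *Atf4*, but also genes induced by ATF4. Of these 14, 2 were lower in Ad*Lmo3* and 1 was higher, against 1.57 and 2.71 percent of all genes tested. The other 11 did not pass the test, and the median was -0.18. The eIF2 kinases (*Eif2ak1* to *Eif2ak4*), *Eif2s1* and *Atf4* were not called with edgeR. *Atf4* mRNA was at 358, 434 and 375 CPM in AdLacZ against 351, 299 and 269 CPM in Ad*Lmo3*. The groups were separate by a narrow margin, and the log2 fold change of -0.34 (SE 0.11, adjusted p = 0.140) did not pass the test with edgeR, although DESeq2 gave an adjusted p of 0.0406. ATF4 is controlled largely through translation, which RNA counts do not measure. *Ddit3*, which encodes CHOP, was at 226, 297 and 265 CPM against 180, 156 and 105 CPM, a log2 fold change of -0.84 (SE 0.19, adjusted p = 0.0471, up to 0.166 without AdLacZ replicate 3). *Trib3*, a pseudokinase induced by ATF4 and CHOP, was at 299, 319 and 344 CPM against 175, 198 and 137 CPM. Its log2 fold change was -0.91 (SE 0.13, adjusted p = 0.0111), and 12 of the 13 alternatives kept the call.

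The third called gene of this list moved the other way. *Eif4ebp1*, an ATF4 target that encodes the translation repressor 4E-BP1, was at 225, 239 and 217 CPM in AdLacZ compared with 330, 374 and 390 CPM in Ad*Lmo3*. The groups were separate, and the log2 fold change was 0.68 (SE 0.08, adjusted p = 0.00593). *Eif2ak3*, which encodes PERK, stood at -0.19 (adjusted p = 0.193), *Atf3* at -0.53 (adjusted p = 0.477) and *Ppp1r15a*, the regulatory subunit of an eIF2 phosphatase, at -0.57 (adjusted p = 0.205). *Atf3* and *Ppp1r15a* had overlapping groups. Without AdLacZ replicate 3, 0 of the 14 were called.

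Neighboring lists gave a mixed picture, beside 1.57 percent of all genes tested called lower and 2.71 percent called higher. The 17 mitochondrial aminoacyl-tRNA synthetases, which charge tRNA inside the organelle, had 0 called with edgeR, 1 lower and 1 higher at an unadjusted p under 0.05, and a median of -0.0040 that became positive (up to 0.05) when single libraries were left out. Of 19 other tested enzymes of amino acid and one-carbon metabolism, *Aldh1l2* (-0.84, adjusted p = 0.0405) and *Bcat2* (-0.45, adjusted p = 0.0401) were lower, and *Gpt* (0.54, adjusted p = 0.00724) and *Glul* (0.53, adjusted p = 0.0437) were higher. *Aldh1l2* acts in mitochondrial folate metabolism, *Bcat2* opens branched-chain amino acid breakdown, *Gpt* is the cytosolic alanine aminotransferase and *Glul* makes glutamine. The median of this list was 0.02, or -0.06 with library totals. Of 15 other amino acid transporters only *Slc7a6*, a carrier of cationic and neutral amino acids, was called (0.48, adjusted p = 0.0131), and the median was 0.06, or -0.01 with library totals. Without AdLacZ replicate 3 none of the enzymes or transporters of these 2 lists was called.

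ER chaperones and related ER genes, many of which are induced by the ATF6 and XBP1 arms of the stress response, were taken as a further list. They are called chaperones here for short, although *Canx* and *Herpud1* among them are not lumen proteins. Of 16, 14 were lower in Ad*Lmo3*, against 1.57 percent of all genes tested, and 0 were higher. The other 2 did not pass the test, and the median was -0.73. Those with the smallest p were *Sdf2l1* (-1.58), *Calr* (-1.19), *Dnajb11* (-0.74) and *Hsp90b1* (-1.09). The 2 that did not pass, *P4hb* (-0.24) and *Dnajb9* (0.17), are named after their values were seen. The calls numbered 4 without AdLacZ replicate 3 and 9 without Ad*Lmo3* replicate 2. The difference in size between the chaperones and the amino acid genes was not tested.

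**Figure D5:**
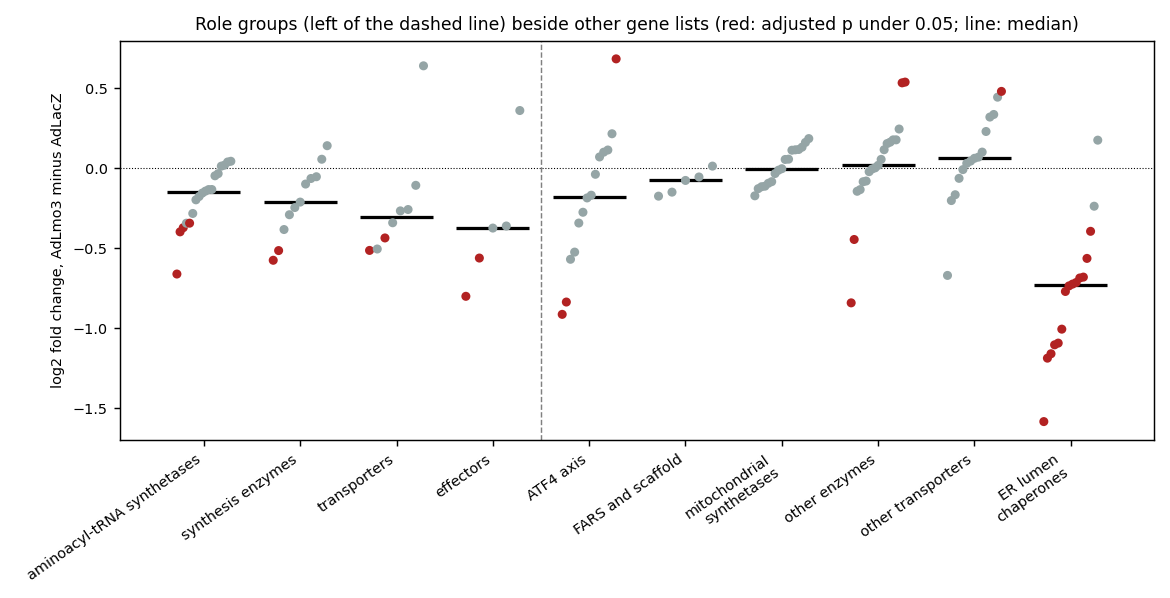
Log2 fold change (Ad*Lmo3* against AdLacZ) of each tested gene in the 4 roles, left of the dashed line, and in 6 other lists. Red marks an adjusted p under 0.05 and horizontal lines are medians. The medians of the 4 roles run from -0.15 to -0.38, those of the mitochondrial synthetases, other enzymes and other transporters lie between -0.0040 and 0.06, and that of the chaperones lies at -0.73.

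The normalization bears on the sign of small changes. With TMM scaling 36.7% of the 547 genes called were lower in Ad*Lmo3*, and with library totals alone 65.3% of 767 were. The 44 genes shifted in the same direction, to 15 called lower, 0 called higher and 39 of 42 lower in sign. The median of all genes moved by less than 0.1, to -0.07.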

How the data were processed

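RNA-Seq was performed on 6 libraries (AdLacZ and Ad*Lmo3*, 3 each) with the NEBNext Ultra II kit and single reads of 75 bp. The authors mapped the reads to the mouse genome with STAR 2.5.0b and deposited raw counts per gene symbol for each library, without normalization. The counting program, its strand setting and the annotation are not given in the sources used here. Reads assigned to no gene (7.15 to 8.94%) or to several (0.476 to 0.543%) stayed out of library sizes.

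Groups came from the sample labels. The titles distinguish the replicates by number only and do not say whether they were separate infections. The p-values thus measure the spread between 3 libraries per virus. Counts were analyzed with edgeR 4.0.16 under R 4.3.3. Low genes were removed by filterByExpr, library sizes were scaled by TMM, and groups were compared by the quasi-likelihood test, with p-values adjusted over 12766 genes after Benjamini-Hochberg and a threshold of 0.05. SE is the log2 fold change divided by the root of F. No pair of replicates agreed within sampling noise. Alternatives were DESeq2 1.42.0, limma voom 3.58.1, other scaling (DESeq2-type size factors, library totals), every gene with at least 1 count, at least 1 CPM in at least 3 libraries, a replicate block and leaving out each library. The floor of 3 counts covers counting error only.

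The 44 genes, their roles, the comparison lists and the tests were chosen with earlier results of these data known. Named were all called genes, the highest and lowest gene of each role, 6 genes of the ATF4 axis and untested genes. Called genes of other lists (up to 4) were named too, and further genes were named after their values were seen. Gene positions, transcript lengths (longest principal transcript) and shared stretches came from GENCODE on GRCm38, the build of the authors' mm10 alignment.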

Additional observations from a re-analysis of the deposited data

How the results depend on the processing

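Across 13 alternatives the median log2 fold change of the 42 genes stayed negative and 0 of them were called higher. With DESeq2, 16 were called, all 16 lower, and 1104 of all genes were called. Leaving out each library in turn gave 2 to 10 of the genes called, 2 to 10 called lower, 0 to 0 called higher, 23 to 30 with separate groups in either direction (54.8 to 71.4% of the 42, against 32.5 to 40.0% of all genes in the same fits of 3 against 2 libraries), medians of -0.26 to -0.20 and 77 to 501 of all genes called. With limma voom and with DESeq2-type size factors 10 were lower, with library totals 15, with every gene of at least 1 count 12 and with the strict filter 10. Among all genes the lower calls in these settings numbered 204, 193, 501, 230 and 205 in the same order, against 201 in the main fit. The fits without 1 library have fewer samples, and why single libraries weigh unequally was not tested.

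Signs changed for values near 0, and the genes among them passed the test in none of the 13 alternatives. With library totals they were *Dars* (-0.061), *Hars* (-0.031), *Mars* (-0.035), *Qars* (-0.055), *Phgdh* (-0.019) and the medians of other enzymes (-0.056) and other transporters (-0.0136), where all genes shift down by construction. Leaving out single libraries changed the sign of *Dars* (-0.046 to 0.089), *Mars* (-0.000442 to 0.078), *Qars* (-0.026 to 0.045), *Vars* (-0.10 to 0.031), *Asns* (-0.0976 to 0.015), *Psph* (-0.14 to 0.015) and the medians of mitochondrial synthetases (-0.0369 to 0.052) and other enzymes (-0.019 to 0.12). Of 962 values over all results and settings, 821 kept their direction and side of the threshold (counts within 1.5 times, medians within the spread between replicates), and 141 did not. Of these, 57 were counts or medians that moved further, 47 were genes that lost their call, 18 gained one and 19 changed sign.

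The groups share replicate numbers in the labels. Deviations of same-numbered libraries correlated by 0.0345, 0.176 and 0.176. Replicate 1 correlated better with another number (0.149). Replicates 2 and 3 correlated best with their own number (0.176 each, against at most 0.149 and 0.111 with other numbers). These weak correlations do not settle whether the numbers pair the samples. The main fit used no block because the study states none. With the replicate number as a block, 7 of the genes were called, all 7 lower, 0 higher, with 498 of all genes. *Eprs*, *Gars*, *Sars* and *Ddit3* were then not called.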
